A study of Mus musculus with 36 samples.

Results

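Heat shock proteins and chaperones help other proteins to fold and to stay folded. The genes described here are those whose symbol in the platform annotation starts with Hspa, Hspb, Hsph, Hspd, Hspe, Hsp90, Dnaja, Dnajb or Dnajc, or with Cct and a digit. The rule uses names only and found 76 of the 17711 genes that the annotation names on the array. They are 12 Hsp70 and Hsp110 proteins, 2 Hsp90 proteins, 42 J proteins, 9 genes of the cytosolic chaperonin, 1 of the mitochondrial chaperonin, 8 small heat shock proteins and 2 genes that the prefixes also take, *Hspbp1* and *Hspbap1*. For each gene the probe with the highest mean log2 intensity over all arrays was used. Of the 76 genes, 37 had more than 1 probe. *Hspa8*, *Hspa1b*, *Hsp90ab1*, *Hspe1* and *Dnajb11* had no named probe and were not analysed here.

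Illumina MouseWG-6 BeadChips were hybridized with total RNA of the complete hippocampus of 23 male mice, on 36 arrays and in 2 experiments. In the Braf experiment, 5 Braf-cko mice were compared with 6 Braf-flox littermates at the age of 4 months, on a mixed background of 93.7% C57BL/6J, 6.2% FVB and 0.1% 129/Sv. All 11 were homozygous for the loxP-flanked *Braf* allele, and Braf-cko mice also carried 1 copy of a CamkIIa-Cre transgene, which inactivates *Braf*, a kinase at the head of the ERK/MAPK cascade, in principal forebrain neurons from the weeks after birth, while other neurons and glia keep it. In the CamkII experiment, 6 CamkII-Cre mice with the transgene and 6 CamkII-wt littermates without it were compared at 6 months, on C57BL/6J, to find what the transgene itself does to expression. The transgene cannot be told apart from the alleles that flank it.

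Hsp70 proteins bind exposed stretches of unfolded proteins and release them with the use of ATP. J proteins bring substrates to Hsp70 and trigger its ATPase, and Hsp110 proteins exchange its nucleotide. Hsp90 finishes the folding of kinases and receptors, with the Raf kinases among its known clients, the chaperonins enclose proteins in a ring, and small heat shock proteins hold unfolded proteins without ATP. Neurons express much of this machinery at rest, and a set of these genes is induced by the transcription factor Hsf1 when proteins unfold.

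The median intensity of an array lay between 51.8 and 53.3 in the first experiment and between 64.98 and 70.2 in the second, so the experiments were apparently normalized apart, and levels are not compared between them. Age, strain and experiment cannot be told apart. The annotation's *Braf* probe lay among the dimmer 50% of probes in the Braf experiment and was not tested there. Its log2 intensity was 5.52 ± 0.12 in the 5 Braf-cko mice (mean and SD) and 5.56 ± 0.14 in the 6 Braf-flox mice, and the groups overlapped. Whether this probe lies in the deleted part of the gene was not analysed here, so it does not check the deletion. Markers of hippocampal neurons were measured in all animals, with summed intensities of 8550 to 11000 in the Braf experiment. In this whole tissue, fewer cells of a type and less RNA per cell cannot be told apart.

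None of the 59 members tested passed the test between Braf-cko and Braf-flox mice. The 59 are the members whose probe was among the brighter 50% of all probes, and the other 17 were too dim to be tested. No member passed an adjusted p of 0.05 in limma, where 124 of all 23316 probes did, or 0.532%, and the lowest adjusted p of a member was 0.12. The methods' t-test also gave 0 members. At an unadjusted p under 0.05 there were 6 members, or 10.2%, beside 10.8% of all probes, with 5 lower in Braf-cko mice, beside 5.41% of all probes, and 1 higher, beside 5.37%. The median log2 change of the 59 members was -0.022, beside 0.0025 over all probes. Their median half-width of the 95% confidence interval was 0.19 log2 units, as it was over all probes. For 58 of the 59 the whole interval lay within 0.5 log2 units of 0, beside 21616 of all 23316 probes. The exception was *Hspa12b*. For 34 of the 59 it lay within 0.3, beside 14599 of all probes. The 17 dim members were 3 Hsp70 proteins (*Hspa1l*, *Hspa4* and *Hspa14*), 7 J proteins, 3 chaperonin genes (*Cct6b*, *Cct7* and *Cct8l1*) and 4 small heat shock proteins (*Hspb3*, *Hspb7*, *Hspb9* and *Hspb11*). In a fit of all probes with no filter their changes ran from -0.18 for *Hspb3* to 0.16 for *Hspa14*, and again none of the 76 members passed (lowest adjusted p = 0.16).

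The direction of a change often differed between probes of 1 gene. Of the 17 members with 2 or more tested probes in the Braf experiment, 5 had changes of the same sign on all of them and 12 had changes of both signs. The gap between the highest and the lowest had a median of 0.136 log2 units and was largest for *Dnajc5*, at 0.256. In the CamkII experiment 9 of 18 had changes of both signs, with a median gap of 0.0709 and the largest, 0.205, for *Hspa4l*. No tested probe of any member passed the adjusted threshold in either comparison. Where only 1 change is given for a member, it is that of its brightest probe.

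**Figure D1:**
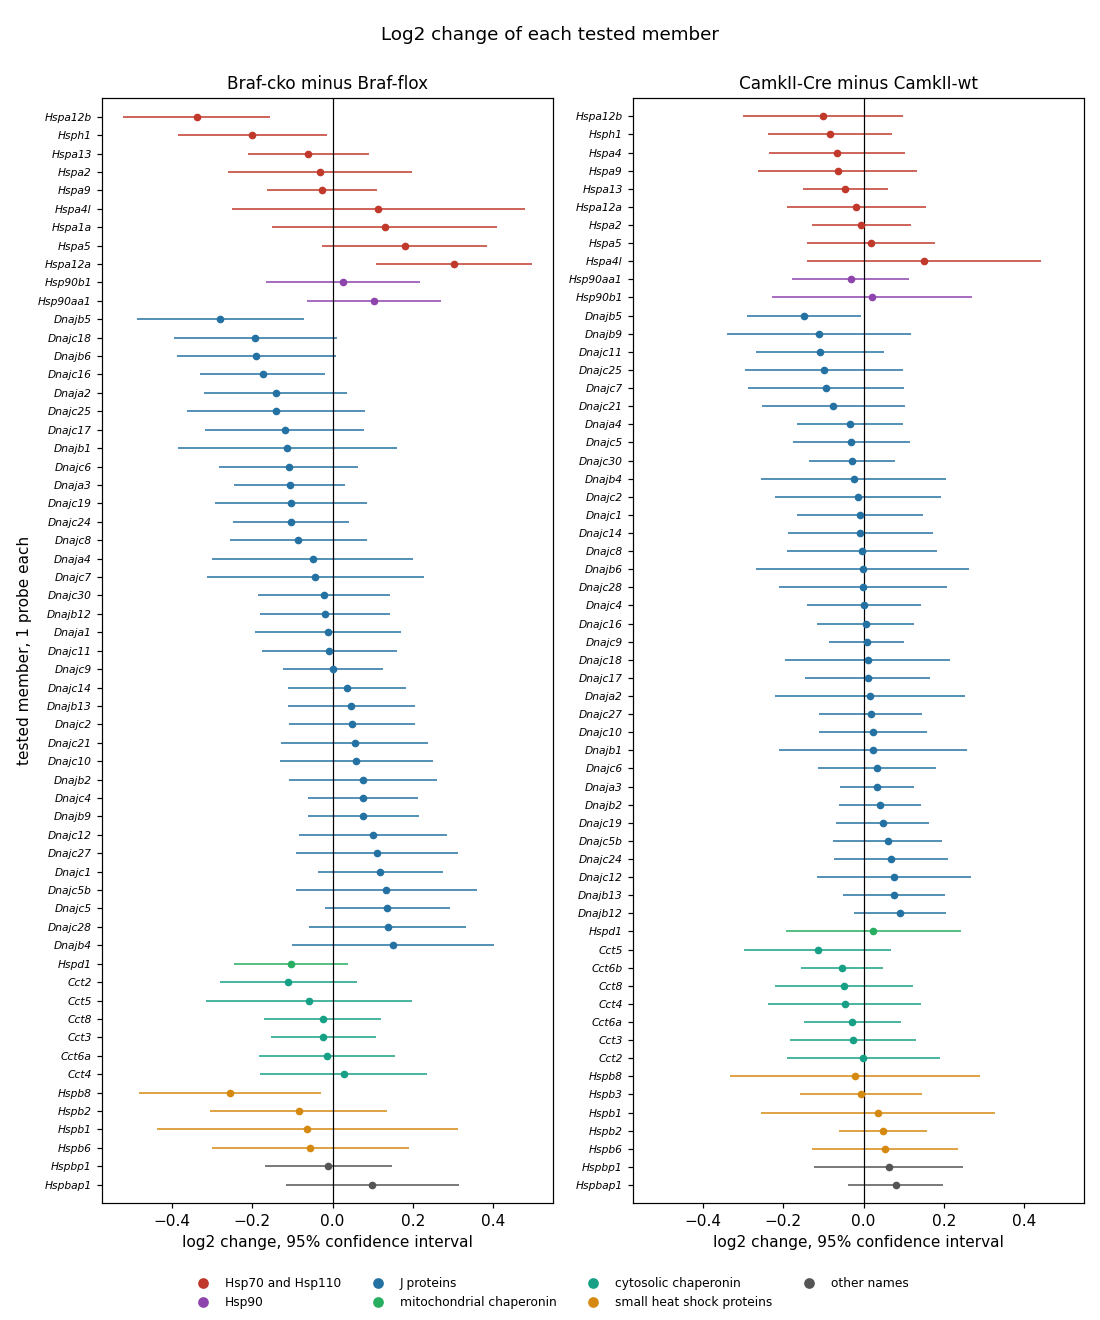
Log2 change (x axis) of each tested member (y axis, 1 probe each, coloured by protein family) with its 95% confidence interval, for Braf-cko minus Braf-flox (left, 59 members) and CamkII-Cre minus CamkII-wt (right, 60 members). The changes ran from -0.34 to 0.30 on the left and from -0.15 to 0.15 on the right, and none passed the adjusted threshold.

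*Hspa12b*, a distant Hsp70 relative that endothelial cells are known to express, had the smallest p of all members. Its log2 intensity was 6.36, 6.23, 6.44, 6.69 and 6.26 in the Braf-cko mice 1 to 5. In the 6 Braf-flox mice it ran from 6.62 over a median of 6.77 to 6.83. All 5 Braf-cko values were below the control mean, and only that of replicate 4 reached into the control range. The log2 change was -0.34 (SE 0.086, 95% confidence interval -0.52 to -0.16, n = 5 and 6), or 79.1% of the control level, with an adjusted p of 0.12 in limma. Without Braf-cko replicate 4 the change was -0.41 and its adjusted p 0.033, so that this 1 animal decided the call. Over the fits that left out 1 animal each, the adjusted p was between 0.033 and 0.24.

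Markers of endothelial and mural cells are the values to read beside it. Their 4 log2 changes in Braf-cko mice were 0.015 for *Cldn5*, -0.099 for *Pecam1*, -0.27 for *Flt1* and -0.42 for *Rgs5*, with a median of -0.18, and none passed the adjusted threshold. Their summed intensity was 2580 to 3460 in Braf-cko and 3180 to 3590 in Braf-flox mice, which overlap. Their part in the *Hspa12b* values was not tested. In CamkII-Cre mice the *Hspa12b* change was -0.10 (SE 0.093, n = 6 and 6), and the difference of the 2 changes was -0.24 (95% confidence interval -0.51 to 0.032), which did not pass the test.

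*Hspa12a*, the second gene of this branch of the Hsp70 family, is known for its expression in the brain and had its mean on the other side. Its log2 intensity was 12.08, 12.03, 12.06, 11.81 and 11.70 in the Braf-cko mice 1 to 5, and in Braf-flox mice it ran from 11.43 over a median of 11.63 to 11.79. The values of the first 4 Braf-cko mice lay above every control, and the fifth lay among them. The log2 change was 0.30 (SE 0.091, 95% confidence interval 0.11 to 0.497, n = 5 and 6), or 123.3% of the control level, with an adjusted p of 0.20 in limma. In CamkII-Cre mice it was -0.019 (SE 0.081). The difference of the 2 changes, 0.32 (95% confidence interval 0.066 to 0.58), had p = 0.016 and an adjusted p of 0.57. It was the only 1 of 60 members under an unadjusted p of 0.05 in that comparison, or 1.67%, beside 6.66% of all probes.

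The other tested Hsp70 and Hsp110 proteins had smaller changes in Braf-cko mice, from -0.20 to 0.18. Some of them, *Hspa4l* and *Hspa1a*, spread more widely between animals, as described below. *Hspa2*, a member first known from the testis, had a log2 change of -0.031 (SE 0.11) in Braf-cko and -0.0056 (SE 0.057) in CamkII-Cre mice. *Hspa9*, the Hsp70 of mitochondria, named here after its values were seen, had -0.027 (SE 0.064) and -0.065 (SE 0.093). *Hsph1*, the Hsp110 protein that recharges Hsp70, was at 11.67, 11.89, 11.68, 11.57 and 11.69 in Braf-cko mice 1 to 5 and at 11.67 to 12.13 in Braf-flox mice, with a median of 11.92. All 5 Braf-cko values were below the control mean, and those of replicates 1 and 4 lay under the lowest control, the first by less than the rounding shown. Its log2 change was -0.20 (SE 0.087, n = 5 and 6) with an adjusted p of 0.42 in limma, and -0.084 (SE 0.073) in CamkII-Cre mice.

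Among the J proteins, 35 were tested in the Braf experiment, with 19 changes below 0 and 16 above it, from -0.28 to 0.15 with a median of -0.011, and 2 had an unadjusted p under 0.05, or 5.71%, beside 10.8% of all probes. *Dnajb5*, a cytosolic J protein, was at 10.33, 10.38, 10.37, 10.30 and 10.25 in Braf-cko mice 1 to 5. In Braf-flox mice it ran from 10.29 over a median of 10.60 to 10.89. The Braf-cko values lay close together, at the lower end of the wider control range or under it. The change was -0.28 (SE 0.097, n = 5 and 6), with an adjusted p of 0.28. Its 3 probes, all tested, gave -0.28, -0.23 and -0.165. *Dnajb5* also had the lowest change of the CamkII experiment, where it ran from 11.37 over 11.43 to 11.63 in CamkII-Cre and from 11.51 over 11.57 to 11.84 in CamkII-wt mice. There 5 of 6 CamkII-Cre mice were below the control mean, and the change was -0.15 (SE 0.067, n = 6 and 6), with an adjusted p of 1. The difference of its 2 changes was -0.13 (95% confidence interval -0.38 to 0.11). The other one was *Dnajc16*, named here after its values were seen, with a change of -0.17 (SE 0.073, adjusted p = 0.40) and 0.013 on its second tested probe.

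**Figure D2:**
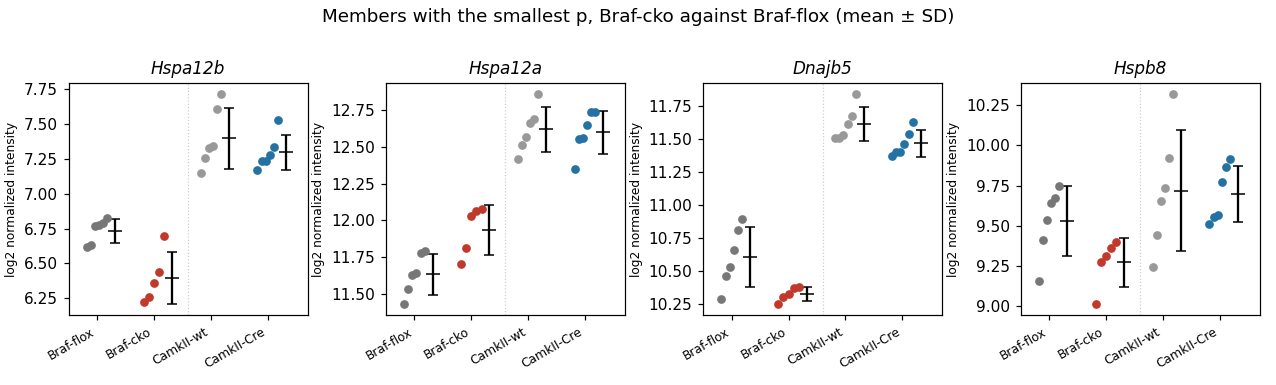
Log2 normalized intensity (y axis) of each animal (points) with the group mean and SD (bars) for *Hspa12b*, *Hspa12a*, *Dnajb5* and *Hspb8* in the 4 groups (x axis). In each panel the Braf-cko and Braf-flox points overlap, for *Hspa12b* through 1 Braf-cko mouse at 6.69 and for *Hspa12a* through 1 at 11.70; the 2 experiments, left and right of the dotted line, are not comparable in level.

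Of the J proteins of the synapse, *Dnajc5*, the cysteine string protein of synaptic vesicles, was at 11.98 to 12.29 in Braf-cko and 11.86 to 12.10 in Braf-flox mice, with a log2 change of 0.14 (SE 0.073, adjusted p = 0.54). Its other 2 tested probes gave 0.15 and -0.10, the widest gap between probes of 1 member in the Braf comparison. *Dnajc6*, or auxilin, which with Hsp70 strips clathrin from vesicles in neurons, was at 12.44 to 12.85 and 12.58 to 12.83, with a change of -0.11 (SE 0.081, adjusted p = 0.69). In CamkII-Cre mice the changes of the pair were -0.030 (SE 0.069) and 0.033 (SE 0.069). Groups overlapped for both genes in both experiments. On the brightest probe of each gene, the highest changes among J proteins in Braf-cko mice were 0.15 (SE 0.12) and 0.14 (SE 0.091). They were those of *Dnajb4*, a close relative of *Dnajb1*, and of *Dnajc28*, with adjusted p of 0.71 and 0.65 in limma. A dimmer tested probe of *Dnajb4* gave -0.035.

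Small heat shock proteins had 4 tested members in the Braf experiment, and all 4 changes were below 0, from -0.26 to -0.056. Of all 23316 probes, 11426 were below 0. Among the dim members of this family, in the fit with no filter, *Hspb3* (-0.18) and *Hspb7* (-0.072) were below 0. *Hspb9* (0.10) and *Hspb11* (0.11) were above it. *Hspb8*, which works with *Bag3* to send misfolded proteins to autophagy, had the lowest. It was at 9.28, 9.40, 9.01, 9.31 and 9.36 in the Braf-cko mice 1 to 5 and at 9.16 to 9.75 in Braf-flox mice, with a median of 9.59. All Braf-cko values were below the control mean, but the groups overlapped in most of their range. The change was -0.26 (SE 0.11, 83.7% of the control level, n = 5 and 6), with an adjusted p of 0.39 in limma, and in CamkII-Cre mice it was -0.021 (SE 0.15). *Bag3* itself, a gene of the pathway that is no member, had a change of -0.35 (SE 0.10, adjusted p = 0.19) in Braf-cko and -0.0033 (SE 0.063) in CamkII-Cre mice.

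The cytosolic chaperonin, a ring that folds actin and tubulin, had 6 tested genes in the Braf experiment. Their changes ran from -0.11 to 0.028 with a median of -0.024. Of the 6 intervals, 5 lay within 0.3 log2 units of 0, beside 14599 of all 23316 probes. In the CamkII experiment 7 were tested and all changes were below 0, from -0.11 for *Cct5* to -0.00057 for *Cct2*. Of all 23316 probes, 11735 were below 0 there. The median of the 7 was -0.047, beside -0.0004 over all probes, and none passed the test. *Cct5* was at 5.87 to 6.30 in CamkII-Cre and 6.03 to 6.44 in CamkII-wt mice (change -0.11, SE 0.086, n = 6 and 6). In animals 1 to 3 alone its change was 0.076. *Hspd1*, the mitochondrial chaperonin, had -0.10 (SE 0.066) in Braf-cko and 0.024 (SE 0.10) in CamkII-Cre mice, and its second tested probe -0.036 and -0.11.

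Chaperones of the endoplasmic reticulum, which fold secreted and membrane proteins and rise when these misfold, were listed apart. Of the 7 measured, 6 were tested in the Braf experiment and none passed. The median of the 6 changes was 0.068, and 5 were above 0, beside 11890 of all 23316 probes. The list was chosen with earlier results of these data known and does not hold every member of this compartment. It leaves out *Dnajb12*, with a change of -0.020, and 0.163 and 0.157 on its other tested probes. *Hspa5*, or BiP, the Hsp70 of this compartment, was at 5.89, 6.16, 5.87, 6.00 and 6.13 in the Braf-cko mice 1 to 5 and at 5.57 to 6.02 in Braf-flox mice, with a median of 5.88. Its change was 0.18 (SE 0.097, n = 5 and 6), with an adjusted p of 0.55 in limma. The values of 2 Braf-cko mice lay above all controls and those of 3 among them. *Dnajc1*, a J protein of its membrane, had 0.12 (SE 0.073), and 0.21 on its second tested probe. *Dnajb9*, a J protein of BiP, had 0.077 (SE 0.065), and *Dnajc10*, which also reduces disulfide bonds, 0.058 (SE 0.089). *Hsp90b1*, the Hsp90 of this compartment, had 0.026 (SE 0.090). *Hspa13* had -0.060 (SE 0.070). *Dnajc3*, which was too dim to be tested, was at 4.96 to 5.34 in Braf-cko and 5.10 to 5.35 in Braf-flox mice.

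In CamkII-Cre mice the same 6 genes had a median change of 0.0044, from -0.11 for *Dnajb9* to 0.022 for *Dnajc10*, and none passed. *Dnajb9* was at 6.08 to 6.50 in CamkII-Cre and 5.96 to 6.61 in CamkII-wt mice, so that the CamkII-wt range held every CamkII-Cre value.

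Heat-inducible members, the targets of Hsf1, numbered 8 measured genes of 12 listed. Hsf1 binds repeats of the unit GAA in alternating orientation. The RefSeq promoters of the build GRCm38.p6, 250 bases before to 50 after a start site, were matched for 63 of the 76 members and searched on both strands for 2 motifs, the shorter contained in the longer. The 3-unit motif GAANNTTCNNGAA was held by 3 of the 63 (*Dnajb6*, *Hspd1* and *Hsph1*), or 4.76%, beside 0.662% of all 27025 genes. The 2-unit motif GAANNTTC was held by 18 of the 63, or 28.6%, beside 17% of all genes. A match is a description of letters and no binding site. The 250 bases before the start site are shown for *Hspa1a*, *Hspb1*, *Hsph1* and *Dnajb1*, the members whose values between animals are described next, and 30 bases around the matches for *Hspd1*, which has another start site further upstream. Capitals mark 2-unit matches, and every sequence reads 5′ to 3′ on the strand of the gene. *Hspa1a* lies at chr17:34972157-34972406 on the minus strand, *Hspb1* at chr5:135887669-135887918 on the plus strand, *Hsph1* at chr5:149636316-149636565 on the minus strand, *Dnajb1* at chr8:83607925-83608174 on the plus strand and *Hspd1* at chr1:55088053-55088082 on the minus strand.
Hspa1a: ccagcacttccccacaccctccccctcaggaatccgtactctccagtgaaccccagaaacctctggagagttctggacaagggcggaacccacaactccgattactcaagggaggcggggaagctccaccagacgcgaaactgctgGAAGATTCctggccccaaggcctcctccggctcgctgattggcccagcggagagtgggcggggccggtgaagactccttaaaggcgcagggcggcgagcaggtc
Hspb1: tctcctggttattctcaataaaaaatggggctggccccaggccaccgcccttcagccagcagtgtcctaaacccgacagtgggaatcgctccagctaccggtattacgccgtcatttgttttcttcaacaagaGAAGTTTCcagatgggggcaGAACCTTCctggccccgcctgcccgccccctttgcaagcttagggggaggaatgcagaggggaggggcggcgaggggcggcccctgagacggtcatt
Hsph1: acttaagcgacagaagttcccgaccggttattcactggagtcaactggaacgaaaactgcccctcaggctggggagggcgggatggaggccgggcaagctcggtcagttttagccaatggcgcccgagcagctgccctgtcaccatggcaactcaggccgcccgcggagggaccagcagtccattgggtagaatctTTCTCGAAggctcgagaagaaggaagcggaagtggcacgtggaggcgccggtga
Dnajb1: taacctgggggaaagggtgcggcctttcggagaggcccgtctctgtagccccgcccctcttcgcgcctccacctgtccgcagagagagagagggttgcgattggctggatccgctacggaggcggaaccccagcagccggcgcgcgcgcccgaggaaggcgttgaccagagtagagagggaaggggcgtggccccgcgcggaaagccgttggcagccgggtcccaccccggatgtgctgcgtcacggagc
Hspd1: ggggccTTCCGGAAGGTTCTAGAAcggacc
The single match of *Hspa1a* began 104 bases before the start site, and the 2 of *Hspb1* 117 and 97 bases before it. *Hsph1* held 1 match 54 bases before the start site, and its 3-unit match lay after it. In *Hspd1*, 3 overlapping matches ran as 1 stretch from 144 bases before the start site. *Dnajb1* held none in this window.

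None of the 8 heat-inducible members passed the test in the Braf experiment, where all 8 were tested, and none of the 6 tested in the CamkII experiment. Their median change was -0.037 in Braf-cko and 0.024 in CamkII-Cre mice. In the Braf experiment 4 of the 8 spread widely between animals of 1 genotype, and the other 4 did not. Over the tested members the median SD within groups was 0.14 in the Braf experiment, as it was over all tested probes (0.143), and 0.13 in the CamkII experiment, beside 0.122 over all tested probes. *Hspb1*, the small heat shock protein Hsp27, had the largest in the Braf experiment, 0.35, followed by *Hspa4l*, an Hsp110 relative, with 0.34, *Hspa1a*, the inducible Hsp70, with 0.25 and *Dnajb1*, its inducible J protein, with 0.24. The SDs of *Hsph1* and *Dnaja1* were both 0.14, that of *Hsp90aa1* was 0.12 and that of *Hspd1* 0.083, close to the median of all probes or under it. In the CamkII experiment the SDs of *Hspb1* and *Hspa4l* were both 0.27, that of *Dnajb1* was 0.21 and that of *Hspd1* 0.197. Members outside the list also spread: *Hspb8* had 0.19 in the Braf and 0.29 in the CamkII experiment, and *Cct5* had 0.23 in the Braf experiment. *Hspa1a* and *Hspa1b* are near-identical copies, so the *Hspa1a* probe may read both.

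One Braf-flox mouse, replicate 3, stood apart for several of them. Its *Dnajb1* was at 11.94, while the other 5 Braf-flox mice were at 11.17 to 11.40 and the Braf-cko mice at 11.35, 11.51, 11.19, 11.04 and 11.35. Its *Hspb1* was at 8.78, above 7.50 to 8.24 in the other Braf-flox and 7.82, 8.18, 8.03, 7.89 and 8.42 in the Braf-cko mice. Its *Hspa1a*, at 6.85, was the highest of all 11 animals, next to 6.73 in Braf-cko replicate 5. The Braf-flox mice were otherwise at 6.16 to 6.43 for *Hspa1a*, and the other Braf-cko mice at 6.45, 6.65, 6.28 and 6.22. This animal also had the highest *Hsph1*, 12.13, and the highest *Hspd1*, 10.33, of the Braf experiment. *Hspa4l* went along in part, with 7.46 in this mouse and 7.48 in Braf-cko replicate 5, the highest. Its *Dnaja1*, at 5.78, and its *Hsp90aa1*, at 6.44, lay inside the range of the other Braf-flox mice. Members outside the list were extreme in this mouse too. Among them, *Dnajb5* (10.89), *Dnajb4* (8.58) and *Hspa2* (12.15) were the highest of all 11 animals, and *Dnajb12* (7.25) and *Dnajc10* (5.63) the lowest. This mouse was picked after its values were seen, and how often each other mouse was extreme was not counted.

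**Figure D3:**
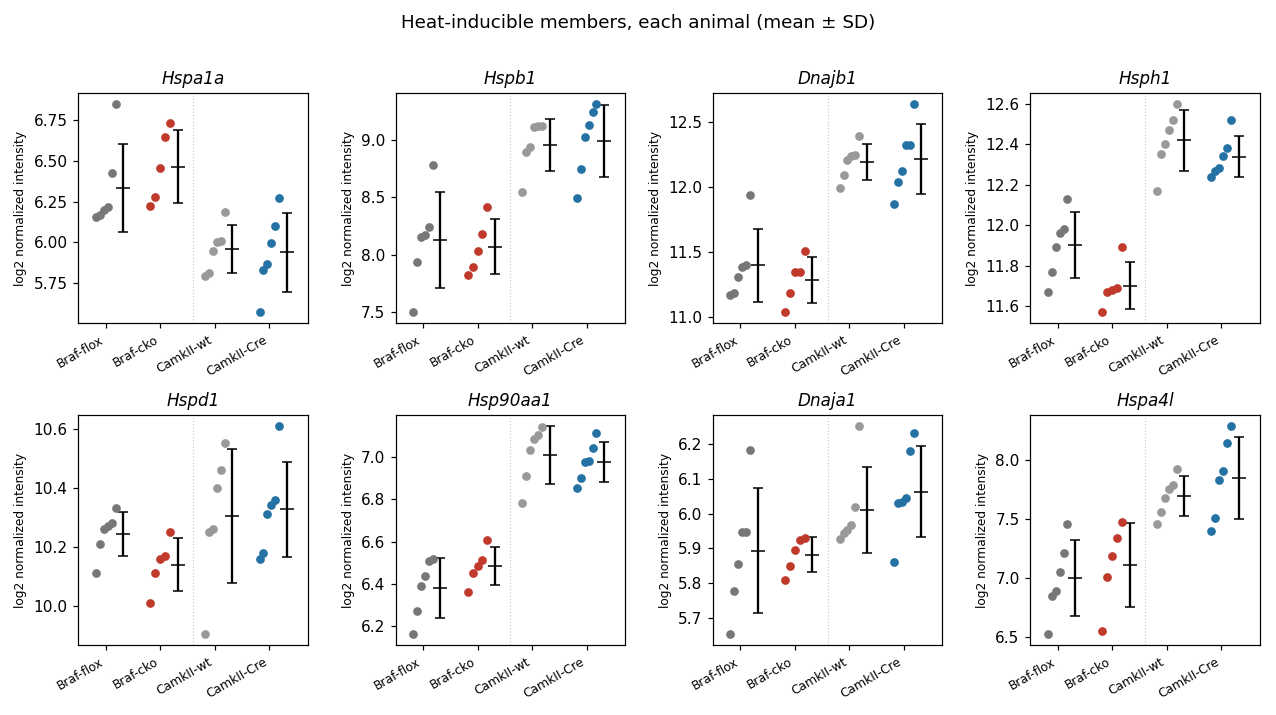
Log2 normalized intensity (y axis) of the 8 heat-inducible members in each animal (points), with the group mean and SD (bars), for the 4 groups (x axis). The Braf-flox point at 11.94 for *Dnajb1*, 8.78 for *Hspb1* and 6.85 for *Hspa1a* is the same mouse, and Braf-cko and Braf-flox points overlap in every panel. The probes shown for *Hspa1a* and *Dnaja1* were too dim to be tested in the CamkII experiment. Another *Dnaja1* probe was tested there, with a change of 0.021.

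Whether these genes varied together between animals of 1 genotype was asked from deviations from the group means, with a permutation test within groups (100000 resamples, two-sided) and adjustment over the pairs of an experiment. Pairs of other probes were not examined in either experiment, so no share over all probes stands beside the counts of pairs. Whether varying together is particular to these genes was not tested. In the Braf experiment, 28 pairs were tested and 4 had an unadjusted p under 0.05, but none passed the adjusted threshold. The closest were *Hspa1a* and *Dnajb1* (Pearson's r = 0.86, permutation p = 0.0077, adjusted p = 0.10, and Spearman's rho = 0.75, permutation p = 0.021, n = 11). Leaving out the 2 animals farthest from the median of the first gene of a pair, here Braf-flox replicate 3 and Braf-cko replicate 5, gave r = 0.71. *Hspb1* and *Dnajb1* had r = 0.79 (rho = 0.64, permutation p = 0.015 and 0.046, adjusted p = 0.10), *Hspa1a* and *Hspb1* 0.77 (rho = 0.55, permutation p = 0.013 and 0.10, adjusted p = 0.10), and *Hspa1a* and *Hsph1* 0.74 (rho = 0.70, permutation p = 0.014 and 0.016, adjusted p = 0.10). Without the 2 farthest animals r was 0.53 for *Hspb1* and *Dnajb1* and 0.36 for *Hspa1a* and *Hspb1*, so both rested largely on those animals, and 0.74 for *Hspa1a* and *Hsph1*. Without Braf-flox replicate 3 none of the 28 pairs had an unadjusted p under 0.05, and *Hspa1a* and *Dnajb1* had r = 0.66.

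In the CamkII experiment 1 of 15 pairs passed, *Hsph1* with *Hspd1* (r = 0.89, permutation p = 0.0013, adjusted p = 0.02, and rho = 0.84, permutation p = 0.0021, adjusted p = 0.032, n = 12). Without the 2 farthest animals r was 0.82. The 2 genes shared a split between animals: mice 4 to 6 of each group lay mostly above their group mean, and mice 1 to 3 mostly below it. With the deviations taken within mice 1 to 3 and within mice 4 to 6, r was 0.80 (permutation p = 0.04, adjusted p = 0.47), so the call was lost. It was also lost on the first array of each animal alone (r = 0.74, adjusted p = 0.15), but not on the second (r = 0.93, adjusted p = 0.0042). In the Braf experiment the same pair had r = 0.58 (rho = 0.55, permutation p = 0.075 and 0.093, n = 11), and 0.72 without the 2 farthest animals. *Dnajb1* and *Hspa4l* had r = 0.77 in the CamkII experiment (rho = 0.71, permutation p = 0.013 and 0.027, adjusted p = 0.10), which was 0.56 without the 2 farthest animals.

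**Figure D4:**
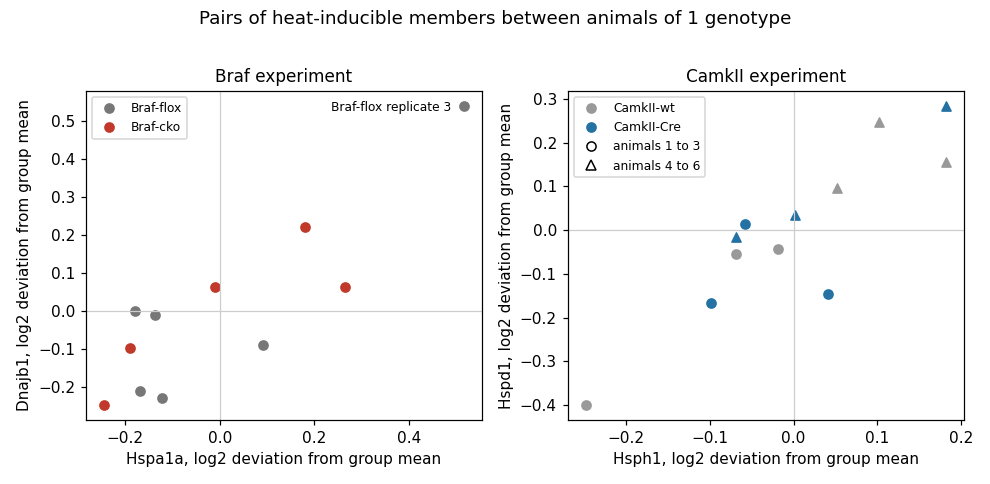
Deviation of each animal (points) from its group mean in log2 units, *Dnajb1* (y axis) against *Hspa1a* (x axis) in the Braf experiment (left) and *Hspd1* (y axis) against *Hsph1* (x axis) in the CamkII experiment (right). Braf-flox replicate 3 stands alone at the upper right of the left panel, where r was 0.86 with and 0.66 without it, and on the right triangles (mice 4 to 6) and circles (mice 1 to 3) are largely apart.

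The second array of each CamkII mouse gave lower values than the first for a number of chaperones. Of the 60 tested members, 13 were lower by more than 0.5 log2 units on average and none was higher by as much, or 21.7%, beside 13.3% of all tested probes, where 3088 were lower and 18 higher by as much. For each of the 13, every one of the 12 mice was lower on its second array. *Dnaja2*, a cytosolic J protein, had the largest shift, from a median of 8.77 on the first arrays to 7.30 on the second, by -1.36 on average. *Hspd1* followed with -1.13, *Dnajb9* with -0.9995, *Hsp90b1* with -0.95, *Dnajb6* with -0.90 and *Cct5* with -0.79, and *Hsph1* had -0.53. All 12 mice had 1 array of each kind, so each group held both kinds in equal number. Around it, the technical SD of 1 array had a median of 0.10 over the members, and that of the mean of 2 arrays 0.073. *Hsph1* and *Hspd1*, the pair above, both belong to the 13. Their r was 0.74 on the first arrays alone and 0.93 on the second arrays alone. The part of differences between mice in the shift was not tested.

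**Figure D5:**
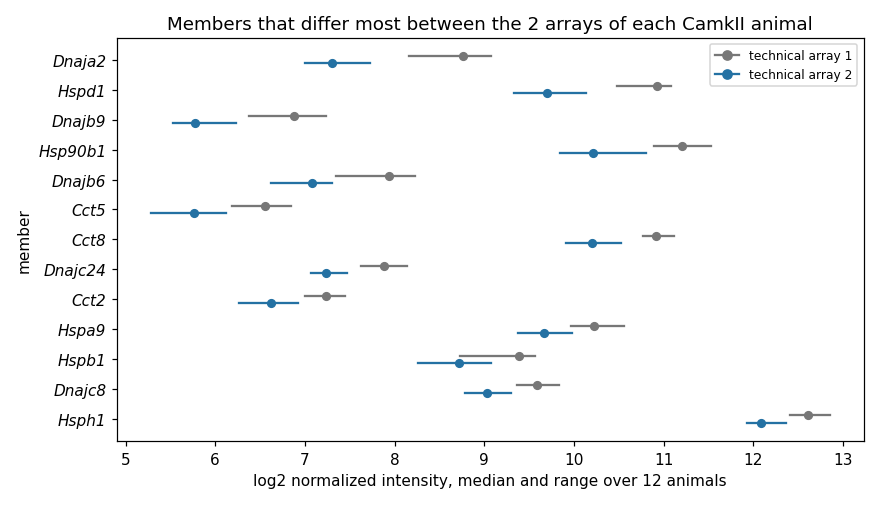
Median (points) and range (lines) over the 12 CamkII mice of the log2 normalized intensity (x axis) on the first and on the second technical array, for the 13 members (y axis) that differed by more than 0.5 on average. All 13 were lower on the second array, from -1.36 for *Dnaja2* to -0.53 for *Hsph1*.

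None of the 60 members tested passed the test between CamkII-Cre and CamkII-wt mice either. No member passed the adjusted threshold in limma, where 2 of all 23316 probes did, or 0.00858%, and the methods' t-test also gave 0 members. On the brightest probe of each gene there was 1 member at an unadjusted p under 0.05, *Dnajb5*, or 1.67%, beside 1.63% of all probes. All 60 confidence intervals lay within 0.5 log2 units of 0, and 55 within 0.3, beside 22921 and 20326 of all 23316 probes. The median change was -0.0027. The highest changes were 0.15 for *Hspa4l* (SE 0.14), 0.091 for *Dnajb12* (SE 0.054), a J protein of the endoplasmic reticulum membrane, 0.080 for *Hspbap1* (SE 0.055) and 0.076 for *Dnajb13* (SE 0.059), known from sperm and cilia. A second tested probe of *Hspa4l* gave -0.054, and -0.083 in Braf-cko mice, where the first gave 0.11. Of the low ones not given above, *Dnajc11*, a J protein of mitochondria, had -0.11 (SE 0.075). Its second tested probe gave -0.22 (SE 0.082, unadjusted p = 0.016 in limma), which did not pass the adjusted threshold. *Hsp90aa1*, the inducible Hsp90, had -0.032 (SE 0.068) here and 0.10 (SE 0.078, adjusted p = 0.69) in Braf-cko mice, and *Dnaja1*, a J protein of the cytosol, -0.011 (SE 0.085) in Braf-cko mice.

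The difference between the 2 changes was tested for 60 members, and none passed, beside 43 of 23316 probes, or 0.184%. Its median was -0.011, and 51 of the 60 intervals lay within 0.5 log2 units of 0, beside 19821 of all 23316 probes. No member's groups were free of overlap in either experiment, beside 1.72% of all probes in the Braf and 0.0815% in the CamkII experiment.

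Partner genes of the chaperones did not pass the test either. Of 49 listed co-chaperones, prefoldins, folding enzymes and regulators of the heat shock and unfolded protein responses, 46 were measured and 44 were tested in each comparison, and none passed. In Braf-cko mice 4 of the 44 had an unadjusted p under 0.05, or 9.09%, beside 10.8% of all probes. The lowest p was that of *Pfdn2*, a subunit of prefoldin, which hands new proteins to the cytosolic chaperonin (-0.31, SE 0.084, adjusted p = 0.15), followed by *Bag3*. *Hsf2*, the relative of Hsf1, had -0.0041 (SE 0.11) in Braf-cko and -0.21 (SE 0.086, adjusted p = 1) in CamkII-Cre mice. Among markers of other cell types, only *Sst* of interneurons passed in Braf-cko mice (-0.85, SE 0.11, adjusted p = 0.0028). The changes of the other interneuron markers were -0.48 for *Pvalb*, -0.19 for *Gad1* and -0.044 for *Gad2*. The summed intensity of the 4 interneuron markers was 9360 to 10800 in Braf-cko and 12200 to 16300 in Braf-flox mice, without overlap. This sum includes *Sst*, which the authors also report as downregulated and propose as a target of ERK/MAPK signaling. The part of these markers in the values of the chaperones was not tested.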

How the data were processed

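The deposited intensities were normalized between arrays by the authors, on a linear scale, with beadarray, vsn and limma as the named packages of R. Settings and versions are not given in the sources used here. A second table holds 72 columns of signals before normalization and detection p-values whose names match no sample label, and it was not used. Intensities were taken to log2, and arrays of 1 animal were averaged. Groups came from the sample labels. For each comparison limma 3.58.1 in R 4.3.3 tested the brighter 50% of probes (23316) with lmFit and eBayes. Tests were two-sided, p-values were adjusted over all of them (Benjamini-Hochberg), and the threshold was 0.05. Each experiment had its own fit, and the difference of the 2 changes came from 1 fit of all groups. The methods' t-test ran on the same values. The limma fit of each comparison was tested on simulated data, and the t-test was not.

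Probes were named by the platform annotation, with 1 symbol for 29976, several for 10 and none for 16646 of 46632. Members and lists were chosen with earlier results of these data known. Named genes are the members with the 4 lowest and 4 highest changes of the Braf and CamkII comparisons, the 5 brightest and the 5 of the largest SD within groups, the heat-inducible members and those of the endoplasmic reticulum, and the partner genes with the smallest p. *Hspa9*, *Dnajc16*, dim members, the ends of family ranges and the members with large differences between arrays were named outside this rule, after their values were seen. Promoters came from RefSeq. Alternatives covered filters, normalization, arrays, variance models, blocks and single animals.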

Additional observations from a re-analysis of the deposited data

Results flagged for a closer look

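Of 116 groups of named members, 6 held an animal far from the others of its group by Dixon's criterion at 95%, and chance flags about 1 in 20 groups. *Dnajb1* of Braf-flox replicate 3 was at 11.94, above 11.17 to 11.40 in the other 5 Braf-flox mice. *Dnajc11* of Braf-flox replicate 6 was at 8.50, above 8.23 to 8.31. *Dnajc28* of Braf-flox replicate 4 was at 6.48, above 6.07 to 6.21. *Dnaja1* of CamkII-wt replicate 5 was at 6.25, above 5.93 to 6.02, and *Dnajc3* of the same mouse was at 5.89, below 6.04 to 6.13. *Hspa5* of CamkII-wt replicate 1 was at 6.36, below 6.62 to 6.76. All are log2 intensities.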

How the results depend on the processing

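Over the alternatives, 1 count of members past the threshold moved: in the Braf comparison the fits without 1 animal each gave 0 to 1 members, the 1 being *Hspa12b* without Braf-cko replicate 4. In the CamkII comparison, over the difference of the 2 changes and under every other alternative the count stayed at 0, with animals 1 to 3 or 4 to 6 alone, chosen after seeing the data, among them. The count of all probes past the threshold in the Braf comparison was 19 by the methods' t-test, 331 in 1 fit of all 4 groups and 69 to 114 without 1 animal, beside 124. It was 0 to 6 in the CamkII comparison, beside 2, and for the difference 91 with every array and the animal as a random block, beside 43. Of the members with the lowest and highest changes of each comparison, followed through all alternatives, 4 values lay on the other side of 0: a second probe of *Dnajb4* gave -0.035 in the Braf and of *Hspa4l* -0.054 in the CamkII comparison, *Cct5* had 0.076 in animals 1 to 3 and *Hspa4l* -0.025 in animals 4 to 6, and the cause was not tested. For the rest of the values of named members, tested probes other than the brightest lay on the other side of 0 for *Dnajb12* (0.163 and 0.157), *Dnajc11* (0.043 and 0.089), *Dnajc16* (0.013), *Dnajc5* (-0.10) and *Hspa4l* (-0.083) in the Braf comparison, and for *Dnajc1* (0.049), *Dnajc16* (-0.056), *Hsp90aa1* (0.023) and *Hspd1* (-0.11) in the CamkII comparison. The pair *Hsph1* and *Hspd1* was lost on the first arrays and with animals 1 to 3 and 4 to 6 centred apart (0 pairs each). The second of these and the correlations without Braf-flox replicate 3 were chosen after seeing the data. Animals of the same replicate number did not deviate together in every pair (r from -0.14 to 0.13 in the Braf and from -0.24 to 0.59 in the CamkII experiment), and of the CamkII mice those numbered 1 and 6 and of the Braf mice those numbered 2 correlated best with their own number. With the replicate number as a block, 0 members passed in each comparison, and 58 probes in the Braf comparison. The fit of every array with the animal as a random block was not run for the Braf comparison, where 1 mouse had 2 arrays. Dim probes limit the rest: 17 and 16 members were not tested.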
